A study of Mus musculus with 2 samples.

Results

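Hspa5, Hsp90b1, Calr, Pdia4, Herpud1, Xbp1, Atf4, Ddit3, Trib3 and Chac1 belong to the unfolded protein response and the integrated stress response, and their messages were counted in single cells of the mouse vitreous. They were chosen by symbol, and all 10 were found among the 31053 genes of both feature tables. The cells came from C57BL/6 mice whose eyes had been injected with zymosan, a yeast cell wall preparation that draws in leukocytes. In 1 library the mice had received aCXCR2, an antiserum against CXCR2, a chemokine receptor of neutrophils, and in 1 library NRS, the serum given in its place. For both, fluid of the vitreous and a PBS wash of the retina were passed over magnetic beads against Ly6G, a neutrophil surface protein, before droplet capture with a 10x 3' kit. Age, dose, time after injection and the number of mice pooled are not given in the sources used here. With 1 library per group there was no replicate and no test, and every interval below is a 95% counting interval that leaves out variation between mice. The intervals of levels and of ratios treat UMIs as independent, so they leave out variation between cells too.

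The unfolded protein response adjusts the endoplasmic reticulum (ER) to its load of unfinished protein. Its sensors are IRE1, which splices the message of the transcription factor XBP1, ATF6, which is cut to release a transcription factor, and PERK, which phosphorylates the translation factor eIF2. Phosphorylated eIF2 is also the common signal of the integrated stress response, in which other kinases sense amino acid shortage, double-stranded RNA or haem shortage. It slows most translation and favours that of ATF4, whose targets include Ddit3, Trib3 and Chac1. Neutrophils are short-lived cells with abundant ready-made granule proteins, whereas XBP1 is known for its part in secretory cells and in the making of eosinophils.

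The promoters of 5 of the genes are shown because they carry the short motifs by which these responses are classed. They are the 250 bases before the RefSeq start on build GRCm38.p6, or 30 bases around a match after the start for Trib3, and they run 5' to 3' on the gene's strand. Capitals mark the matches: the ER stress response element (ERSE) in Hspa5 at chr2:34771840-34772089 on the plus strand and in Hsp90b1 at chr10:86705445-86705694 on the minus strand, and, in Herpud1 at chr8:94386179-94386428 on the plus strand, a C/EBP-ATF response element (CARE) and nearer the start an ERSE-II. The CARE is also marked in Chac1 at chr2:119350992-119351241 on the plus strand and in Trib3 at chr2:152344028-152344057 on the minus strand.
Hspa5: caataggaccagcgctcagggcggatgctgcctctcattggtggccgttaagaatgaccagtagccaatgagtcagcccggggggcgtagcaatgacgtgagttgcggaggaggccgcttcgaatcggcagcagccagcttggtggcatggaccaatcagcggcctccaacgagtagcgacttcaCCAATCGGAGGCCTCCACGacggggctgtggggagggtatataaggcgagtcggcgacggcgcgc
Hsp90b1: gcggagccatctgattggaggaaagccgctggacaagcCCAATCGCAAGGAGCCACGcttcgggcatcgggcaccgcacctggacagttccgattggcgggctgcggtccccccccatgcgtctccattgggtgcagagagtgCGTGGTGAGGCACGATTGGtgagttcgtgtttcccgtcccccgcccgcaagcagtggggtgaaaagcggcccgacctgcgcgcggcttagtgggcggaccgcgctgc
Herpud1: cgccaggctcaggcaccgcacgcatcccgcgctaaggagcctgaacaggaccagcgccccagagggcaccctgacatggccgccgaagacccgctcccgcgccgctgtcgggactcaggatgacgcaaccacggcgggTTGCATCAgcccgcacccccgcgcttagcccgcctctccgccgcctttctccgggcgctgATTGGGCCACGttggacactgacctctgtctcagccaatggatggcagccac
Chac1: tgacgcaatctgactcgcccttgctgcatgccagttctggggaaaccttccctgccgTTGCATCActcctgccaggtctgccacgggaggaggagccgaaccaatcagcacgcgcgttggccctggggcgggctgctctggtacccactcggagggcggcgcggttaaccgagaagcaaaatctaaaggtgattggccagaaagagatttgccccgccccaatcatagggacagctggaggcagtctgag
Trib3: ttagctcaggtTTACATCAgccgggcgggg

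Both strands of windows of 300 bases were searched, from 250 before to 50 after the start, and all 10 genes had a window. The ERSE, here CCAAT and CCACG with 9 bases between them, was found in Hspa5, Hsp90b1 and Calr, against 39 of 32851 promoters in all (0.119%). Hsp90b1 held it at 2 places, starting 212 and 107 bases before the start. The ERSE-II, here ATTGG and CCACG with 1 base between them, was found in Herpud1, against 12 promoters in all (0.0365%). The CARE, TGATGNAA, was found in Herpud1, Chac1 and Trib3, against 1304 promoters (3.97%). Neither TGACGTGG, the core of the unfolded protein response element, nor TGACGTCA, the cyclic AMP response element, was found in any of the 10, against 0.676% and 1.79% of promoters. None of the motifs was found in the windows of Xbp1, Atf4, Ddit3 or Pdia4. These are matches of letters in a window. On build GRCm38 the genes not shown above lie, in GENCODE, at chr8:84841850-84846934 (Calr) and chr6:47796141-47813430 (Pdia4) on the minus strand, and at chr11:5520659-5525893 (Xbp1), chr15:80255184-80257541 (Atf4) and chr10:127290774-127296288 (Ddit3) on the plus strand, and all are protein coding.

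After the cell filter 4826 aCXCR2 cells with a median of 10383.5 UMIs and 5655 NRS cells with a median of 4759 UMIs were kept, holding 81812329 and 47553685 UMIs. The cells fell into 20 clusters, numbered 0 to 19. Although both libraries are labelled as Ly6G+ cells, the clusters named neutrophil-like from their markers (2, 4, 5, 8, 12 and 13) held 51.1% of aCXCR2 cells and 25.4% of NRS cells. Macrophage-like clusters (3, 9, 11 and 14) held 36.6% of aCXCR2 and 10.7% of NRS cells, and photoreceptor-like clusters (6, 15 and 19) 4.35% and 11.4%. Cluster 17 was lens-like, with 7 and 83 cells, and clusters 0, 1, 7, 10, 16 and 18 stayed unnamed. Of these, cluster 0 held 2.34% of aCXCR2 and 15.3% of NRS cells, and cluster 1 held 1.3% and 14.8%. Cluster 7 held 2.61% and 9.58%, and cluster 10 held 0.497% and 9.18%. In NRS the 12 neutrophil markers summed to 24810, 7343, 28420 and 16200 CPM in clusters 0, 1, 7 and 10. Whether these clusters held neutrophils was not tested, and the neutrophil-like class leaves them out. The libraries filled the neutrophil-like clusters unequally: the largest in aCXCR2, cluster 4, was 28.9% of aCXCR2 and 10.2% of NRS neutrophil-like cells, the largest in NRS, cluster 2, was 13.1% and 39.2%, and cluster 13 was 15.8% and 0.417%. The libraries shared 53 barcodes among the kept cells. Atf4 and Chac1 were among the 2000 genes used for clustering, and the other 8 were not.

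Levels are given in CPM, the UMIs of a gene summed over the cells of a class or cluster in a library and scaled to a common total of UMIs. They are compared only within a gene, across cells. The genes differed in where they were high, as the map of all clusters shows. Hsp90b1, Calr and Pdia4 were higher in macrophage-like than in neutrophil-like clusters. Hsp90b1 and Pdia4 were also high in the unnamed cluster 16, as was Calr in its 27 aCXCR2 cells (655 CPM). Xbp1 was highest in neutrophil-like clusters 12 and 13, and Atf4, Ddit3 and Herpud1 in the photoreceptor-like cluster 15, as was Trib3. Across the 36 combinations of cluster and library with at least 20 cells, the log2(CPM + 10) levels of Hsp90b1 and Calr correlated at r = 0.95, Calr and Pdia4 at r = 0.87, Atf4 and Trib3 at r = 0.88, and Atf4 and Ddit3 at r = 0.85. Hsp90b1 and Xbp1 correlated at r = -0.50, and Calr and Xbp1 also at r = -0.50. These combinations share 2 libraries, free RNA and depth, and the values are descriptions.

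**Figure D1:**
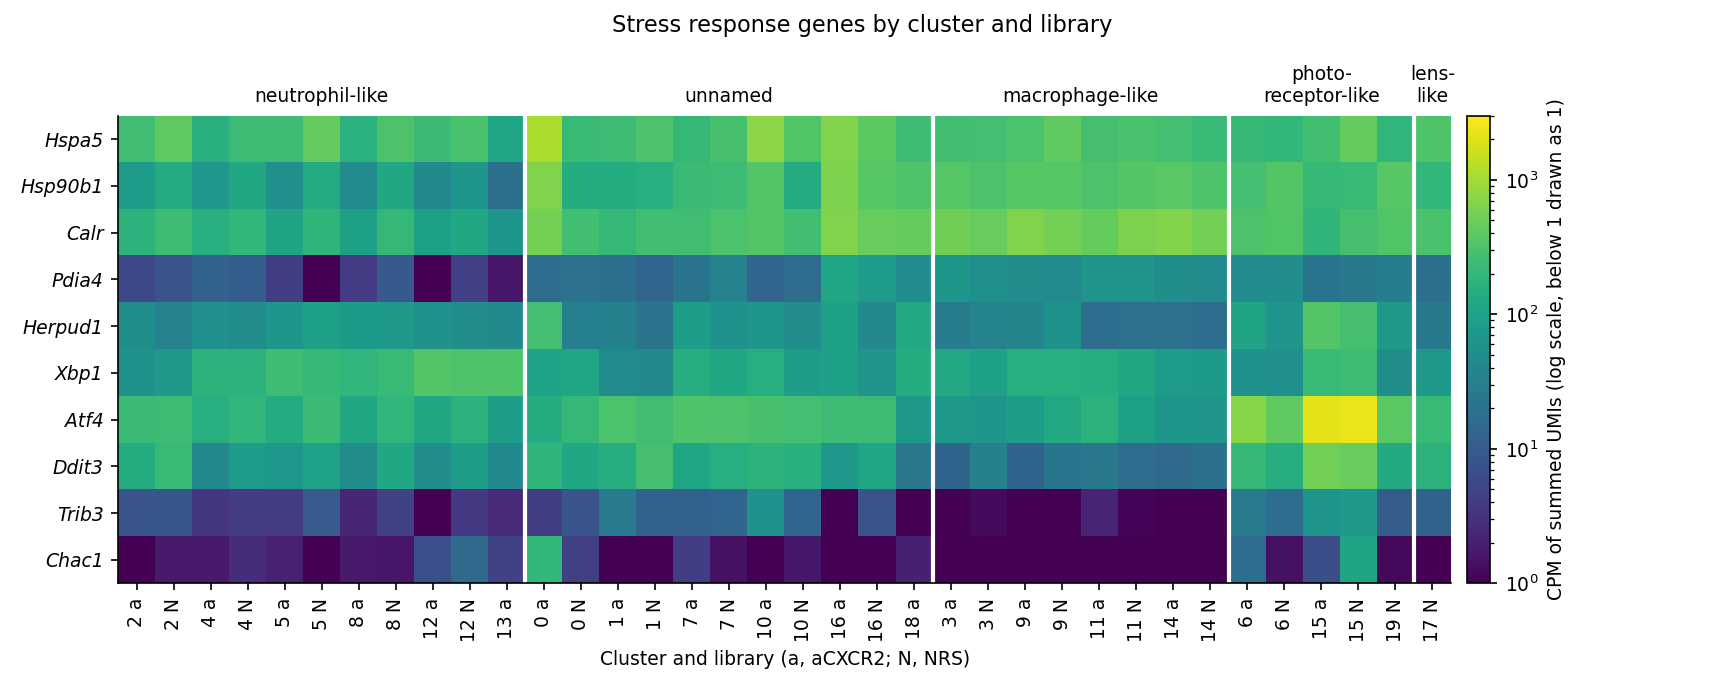
Level of each gene (rows) in each cluster and library (columns; a, aCXCR2; N, NRS; at least 20 cells), with colour giving CPM on a log scale and values below 1 drawn as 1. Atf4 is brightest in both columns of cluster 15 (2175 CPM in aCXCR2 and 2391 CPM in NRS), and Trib3 and Chac1 are dark in every macrophage-like column.

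The ER lumen chaperones come first. Hspa5 encodes BiP, the Hsp70 chaperone that holds the stress sensors inactive until unfolded protein draws it away. In neutrophil-like cells Hspa5 stood at 188 CPM (182 to 194) in aCXCR2 and 371 CPM (356 to 386) in NRS. In macrophage-like cells it stood at 282 and 258 CPM, and in photoreceptor-like cells at 245 and 214 CPM, in aCXCR2 and NRS in that order. The aCXCR2 neutrophil-like level was thus below, and the NRS neutrophil-like level above, all levels in macrophage-like and photoreceptor-like cells. Over the 36 combinations the median was 277 CPM. The lowest was neutrophil-like cluster 13 in aCXCR2 with 114 CPM (103 to 127), followed by clusters 4 and 8 in aCXCR2 with 163 and 166 CPM, whose intervals overlapped.

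The highest Hspa5 levels rested on few cells. Cluster 0 in aCXCR2, an unnamed cluster of 113 cells led by Plet1, Psca and haemoglobin genes, had 1129 CPM. A single cell, with 85089 UMIs, held 639 of its 772 Hspa5 UMIs. Without the 3 cells richest in Hspa5 the level was 149 CPM, against 230 CPM in NRS cells of the same cluster. In aCXCR2, clusters 10 and 16, of 24 and 27 cells, stood at 751 and 655 CPM with all cells. Without the 3 richest cells they stood at 238 and 148 CPM. That cell of cluster 0 also held 357 UMIs of Hsp90b1, 216 of Calr, 166 of Herpud1, 99 of Ddit3 and 89 of Chac1, but 14 of Atf4, 16 of Xbp1 and 0 of Trib3. Whether it was a doublet was not tested.

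Hsp90b1 encodes GRP94, the Hsp90 of the ER lumen. Its level was 56.4 CPM (53.3 to 59.6) in aCXCR2 and 118 CPM (110 to 127) in NRS neutrophil-like cells. In macrophage-like cells it was 361 and 333 CPM, and in photoreceptor-like cells 257 CPM (233 to 282) in aCXCR2 and 344 CPM (332 to 356) in NRS. Both neutrophil-like levels were below all levels in the other classes, and the lowest cluster was again cluster 13 in aCXCR2 with 19.3 CPM (14.8 to 24.9). Calr encodes calreticulin, a lectin chaperone of glycoproteins that also stores calcium. It stood at 118 CPM (114 to 123) in aCXCR2 and 202 CPM (192 to 213) in NRS neutrophil-like cells, at 567 and 542 CPM in macrophage-like cells, and at 273 and 334 CPM in photoreceptor-like cells.

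Pdia4, a protein disulfide isomerase of the ER lumen, was scarce in neutrophil-like cells. It had 6.25 CPM (5.25 to 7.38) in aCXCR2 and 6.63 CPM (4.82 to 8.90) in NRS neutrophil-like cells, intervals that overlap. In macrophage-like cells Pdia4 had 61.5 and 53.9 CPM, and in photoreceptor-like cells 37.4 and 47.0 CPM. Herpud1 encodes an ER membrane protein that helps to send misfolded proteins to degradation. It ran the other way from Pdia4 between leukocyte classes, with 62.8 CPM in aCXCR2 and 54.7 CPM in NRS neutrophil-like cells and 29.5 and 24.8 CPM in macrophage-like cells. Photoreceptor-like cells had 205 CPM of Herpud1 (185 to 228) in aCXCR2 and 77.5 CPM (71.9 to 83.5) in NRS.

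**Figure D2:**
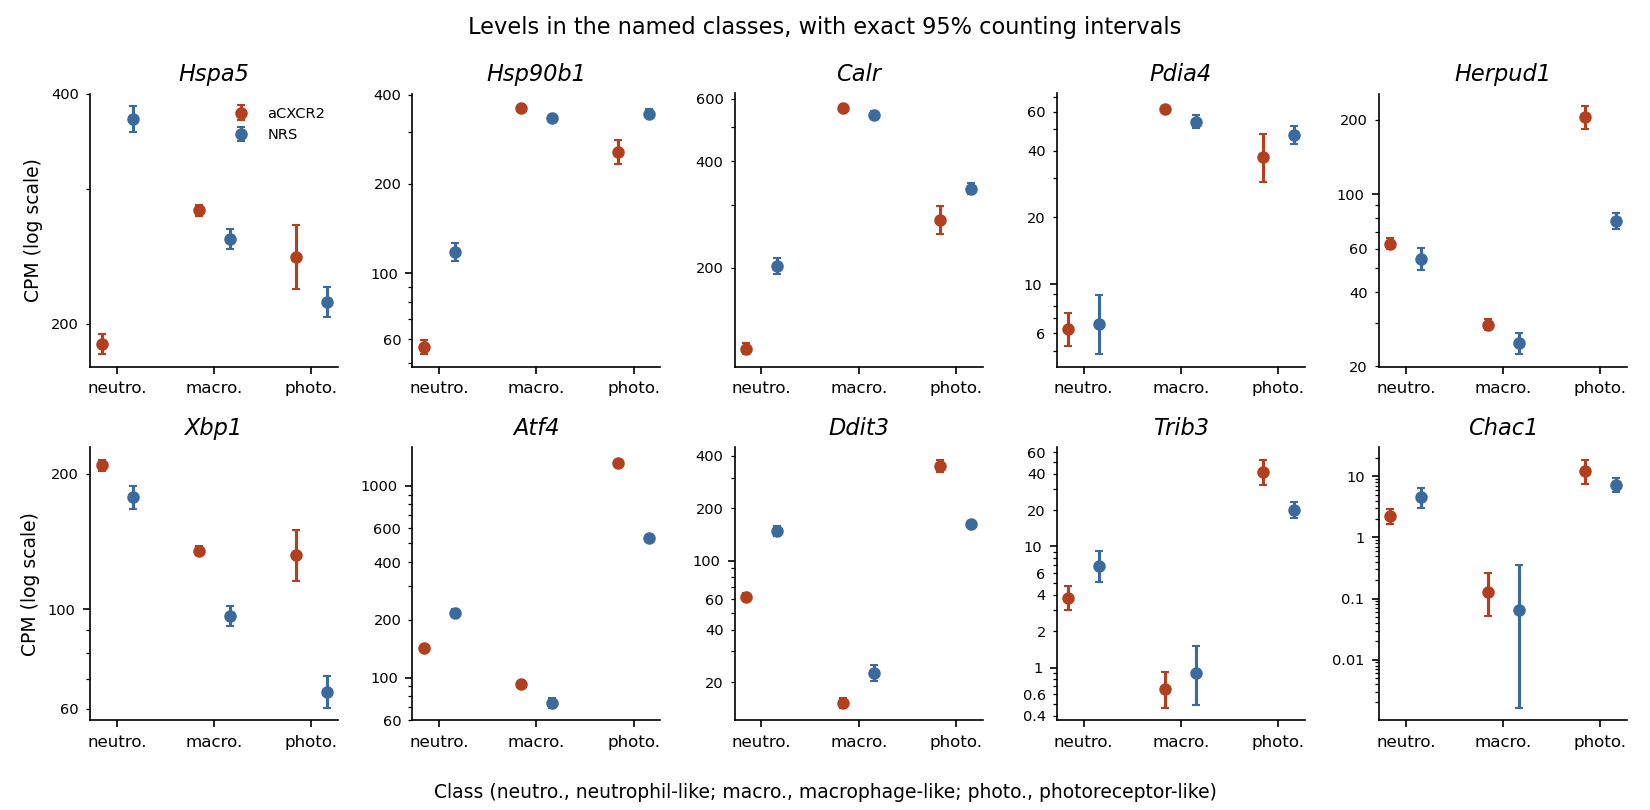
Level of each gene in CPM (log axes that differ between panels) in the 3 larger named classes, with aCXCR2 in red at the left and NRS in blue at the right of each pair and bars for exact 95% counting intervals. Hspa5, Hsp90b1, Calr, Atf4 and Ddit3 are lower in aCXCR2 than in NRS neutrophil-like cells, while Atf4 and Ddit3 are highest in aCXCR2 photoreceptor-like cells.

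Among the transcription factors, Xbp1 was highest in neutrophil-like cells in both libraries. It had 209 CPM (203 to 215) in aCXCR2 and 177 CPM (167 to 188) in NRS neutrophil-like cells, 135 and 96.3 CPM in macrophage-like cells, and 132 and 65.3 CPM in photoreceptor-like cells. The counts take in spliced and unspliced Xbp1 message together, so they carry no measure of IRE1 activity. Within the neutrophil-like class Xbp1 spread widely over clusters. It was high in cluster 12 (351 CPM in aCXCR2 and 332 CPM in NRS) and cluster 13 (335 CPM in aCXCR2), both with Cxcr2 among their 10 leading genes, and low in cluster 2 (61.0 and 77.1 CPM), led by the heat shock genes Hspa1a and Hspa1b. The intervals of clusters 12 and 13 overlapped.

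Atf4 encodes the main transcription factor of the integrated stress response, and is controlled largely at translation, which these counts do not show. It had 142 CPM (137 to 147) in aCXCR2 and 217 CPM (206 to 229) in NRS neutrophil-like cells. In macrophage-like cells it had 92.9 and 73.5 CPM, and in photoreceptor-like cells 1314 CPM (1260 to 1370) in aCXCR2 and 535 CPM (520 to 550) in NRS. The order of the classes was the same in both libraries, with macrophage-like cells lowest.

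Ddit3 encodes CHOP, a transcription factor of the C/EBP family that is known to promote cell death under prolonged ER stress. In neutrophil-like cells it had 61.8 CPM (58.6 to 65.2) in aCXCR2 and 148 CPM (139 to 158) in NRS. It was low in macrophage-like cells, at 15.2 and 22.4 CPM, and high in photoreceptor-like cells, at 352 CPM (324 to 381) in aCXCR2 and 161 CPM (153 to 170) in NRS. Over all kept cells Ddit3 had 39.4 CPM in aCXCR2 and 120 CPM in NRS, a log2 ratio of -1.61. It was the 1 gene of the 8 with at least 10 CPM that was at least 2-fold lower. Within classes its ratio was -1.26 in neutrophil-like, -0.56 in macrophage-like and 1.13 in photoreceptor-like cells. Macrophage-like cells, low in Ddit3, held 54424294 of 81812329 UMIs in aCXCR2 and 15598242 of 47553685 in NRS. The part of class makeup in the all-cell ratio was not tested. In the same all-cell comparison 16.9% of genes were at least 2-fold lower and 3.78% at least 2-fold higher. By TMM Ddit3 stayed called lower (-1.08), against 8.71% of genes, and Xbp1 was called higher (1.18, against 0.65 by total UMIs), as were 11.6% of genes. Outside the photoreceptor-like clusters, the highest Ddit3 levels in NRS were in the unnamed cluster 1 (145 CPM in aCXCR2 and 279 CPM in NRS) and in neutrophil-like cluster 2 (143 and 219 CPM).

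Trib3, a pseudokinase induced by ATF4 and CHOP, and Chac1, a glutathione-degrading enzyme induced by ATF4, were rare. Trib3 had 3.78 and 6.93 CPM in neutrophil-like cells, 0.662 and 0.898 CPM in macrophage-like cells, and 41.4 CPM (32.4 to 52.3) and 19.98 CPM (17.2 to 23.1) in photoreceptor-like cells, in aCXCR2 and NRS in that order. Chac1 had 2.20 and 4.52 CPM in neutrophil-like cells and 12.3 and 7.25 CPM in photoreceptor-like cells, and 7 UMIs and 1 UMI in macrophage-like cells. In all, 61 aCXCR2 cells held 220 Chac1 UMIs and 69 NRS cells held 126. A single aCXCR2 cell held 89 of these, or 40.5%, and a single NRS cell held 47, or 37.3%, so class levels of Chac1 rest on few cells.

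Between the libraries, by total UMIs, neutrophil-like cells in aCXCR2 had less of 5 genes and more of 2. The call used is a ratio of at least 2-fold with at least 10 CPM in 1 library, and 7 of the 10 genes reached that level. Ddit3 (log2 ratio -1.26, interval -1.38 to -1.14) and Hsp90b1 (-1.07, -1.20 to -0.94) were called lower in aCXCR2, against 7.78% of all 6735 genes tested. Hspa5 (-0.98, -1.05 to -0.91), Calr (-0.78, -0.87 to -0.68) and Atf4 (-0.61, -0.71 to -0.52) were lower without reaching the call. Xbp1 (0.24, 0.15 to 0.33) and Herpud1 (0.20, 0.03 to 0.37) were higher, none was called higher, and 1.57% of all genes were. The median of the 7 genes was -0.78, and that of all genes tested was -0.38. Pdia4, Trib3 and Chac1 stayed under 10 CPM in both libraries.

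The size of these ratios depended on scaling. With TMM factors, which scale to the bulk of genes instead of total UMIs, the median gene stood at 0.10, a shift of 0.48. Ddit3 was then at -0.80, Hsp90b1 at -0.60, Hspa5 at -0.51, Calr at -0.31 and Atf4 at -0.15, and Xbp1 was at 0.71 and Herpud1 at 0.67. None of the 10 was called lower, against 2.93% of genes, and none higher, against 4.63%. With total UMIs too, neither Ddit3 nor Hsp90b1 reached 2-fold when cluster 2 was left out (-0.88 and -0.96), and Xbp1 and Herpud1 were then below 0, at -0.15 and -0.12. Relative to the median gene, Ddit3, Hsp90b1, Hspa5, Calr and Atf4 were below and Xbp1 and Herpud1 above. A scaling factor moves all genes of a library alike, so these positions could hardly change between scalings.

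**Figure D3:**
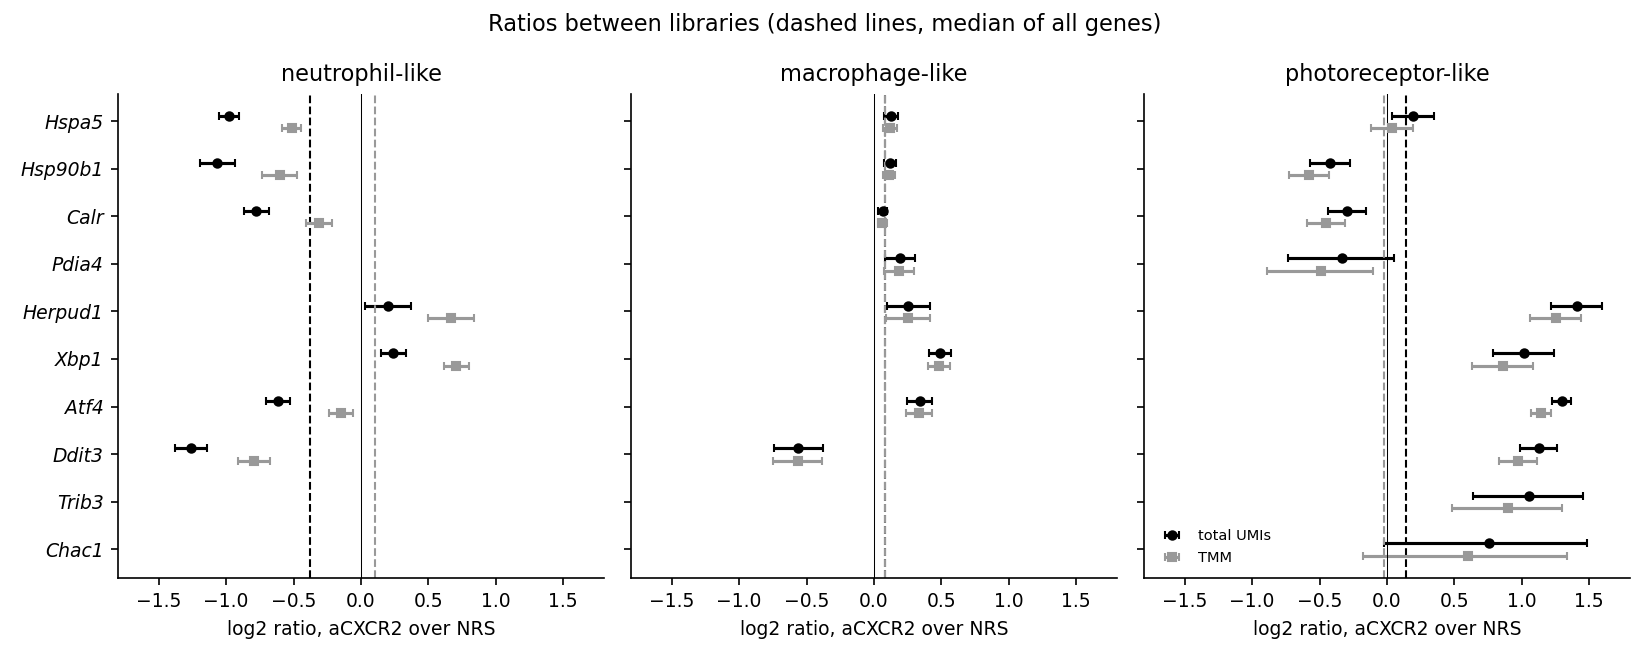
log2 ratio of aCXCR2 over NRS (x axis) for each gene with at least 10 CPM in 1 library, scaled by total UMIs (black circles) or TMM (grey squares), with exact 95% counting intervals and dashed lines at the median of all genes. In neutrophil-like cells Ddit3 lies farthest left (-1.26 by total UMIs and -0.80 by TMM), and in photoreceptor-like cells Herpud1 (1.41 and 1.25) and Atf4 (1.30 and 1.14) lie farthest right.

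Ratios were also taken within each cluster that had at least 50 cells in both libraries. Of these clusters 5 were neutrophil-like (2, 4, 5, 8 and 12). Hspa5, Hsp90b1, Calr and Ddit3 were below 0 in all 5, with intervals wholly below 0 in 4 and an interval that held 0 in cluster 12. They were also below the median gene of their own cluster in all 5, by 0.17 to 0.49 for Hspa5, 0.36 to 0.74 for Hsp90b1, 0.11 to 0.49 for Calr and 0.01 to 0.84 for Ddit3. In cluster 8, led by interferon-induced genes such as Gbp5 and Isg15, Hsp90b1 stood at -1.30, Ddit3 at -1.24, Calr at -1.14 and Hspa5 at -0.96. The median gene of cluster 8 was itself at -0.65, the lowest of the 5 clusters. Relative to it, Hsp90b1 stood at -0.65, Ddit3 at -0.58, Calr at -0.49 and Hspa5 at -0.31. Atf4 was also below 0 in all 5, with the interval below 0 in 4 (-0.32 in cluster 4, -0.76 in clusters 5 and 8, -0.55 in cluster 12) and across 0 in cluster 2 (-0.01, -0.18 to 0.15), where it stood above the median gene. Xbp1 had its interval above 0 in cluster 5, below 0 in cluster 2, and across 0 in the other 3, where it stood at 0.03, -0.17 and 0.08. Relative to the median gene of the cluster, Xbp1 was above in 4 of the 5, by 0.19 to 0.73, and below in cluster 2, by 0.12. Cluster 13, high in Xbp1, had 389 aCXCR2 and 6 NRS cells.

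Depth and the sums of neutrophil and photoreceptor markers also differed between the libraries. Median UMIs per neutrophil-like cell were 7739.5 in aCXCR2 and 4177.5 in NRS. The 12 neutrophil markers summed to 174700 CPM in aCXCR2 and 76720 CPM in NRS neutrophil-like cells, with none at 0. The 10 photoreceptor markers summed to 111 and 1182 CPM there, and the 13 macrophage markers to 4338 and 4470 CPM. The part of free RNA, of depth and of cell makeup in the ratios was not tested. When each cell was thinned to 1000 UMIs, Ddit3 was seen in 6.32% of aCXCR2 (5.39 to 7.36) and 13.2% of NRS neutrophil-like cells (11.46 to 15.07), against 33.0% and 40.3% before thinning. Hspa5 was seen in 16.8% and 29.2% of thinned cells, Hsp90b1 in 5.17% and 10.9%, Atf4 in 12.6% and 19.9%, and Xbp1 in 17.5% and 14.7%. Thinning left out 27 aCXCR2 and 35 NRS cells. No class is known to lack these genes. The lowest thinned share of Ddit3 was in macrophage-like cells, 2.16% and 2.19% at median depths of 30047.5 and 23170 UMIs.

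Ddit3 was also counted by whether Atf4 was seen in the same thinned neutrophil-like cell. In aCXCR2, Ddit3 was seen in 19 of 308 cells with Atf4 (6.17%, 3.76 to 9.47) and in 135 of 2129 without (6.34%, 5.34 to 7.46). In NRS it was seen in 52 of 279 cells with Atf4 (18.6%, 14.2 to 23.7) and in 133 of 1124 without (11.8%, 10.0 to 13.9). The intervals overlapped in aCXCR2 and were apart in NRS. Within single NRS clusters the shares of Ddit3 with and without Atf4 had overlapping intervals: 24.6% and 22.7% in cluster 2, 7.69% and 10.1% in cluster 4, 5.71% and 8.70% in cluster 5, 14.3% and 10.7% in cluster 8, and 10.9% and 9.46% in cluster 12. The difference between libraries in this respect was not tested.

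Macrophage-like cells showed smaller ratios. Of the 8 genes with at least 10 CPM, none was called higher in aCXCR2, against 3.06% of 7579 genes, and none lower, against 2.48%. By TMM none was called either, against 3.0% higher and 2.52% lower. Xbp1 (0.49, 0.41 to 0.57) and Atf4 (0.34, 0.25 to 0.43) were higher, Hspa5, Hsp90b1, Calr, Pdia4 and Herpud1 lay between 0.07 and 0.25, and Ddit3 was lower (-0.56, -0.74 to -0.38). The median of the 8 was 0.16 and that of all genes 0.08. Ddit3 did not move alike within the class. In cluster 3, marked by C1q genes and Mrc1, it had 13.1 CPM in aCXCR2 and 32.7 CPM in NRS (log2 ratio -1.32). In cluster 11, led by Mmp12, it had 24.9 and 17.4 CPM (0.51, 0.11 to 0.94), and Atf4 there had 173 and 95.4 CPM (0.86, 0.69 to 1.03). The 3 NRS cells richest in Ddit3 took part in the cluster 3 value, which without them was 24.9 CPM. The interval of Atf4 held 0 in cluster 3 (0.126, -0.058 to 0.314) and in cluster 14 (0.119, -0.089 to 0.325). Cluster 14 was 6.90% of aCXCR2 and 43.2% of NRS macrophage-like cells, and cluster 9 was 33.4% and 5.11%.

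**Figure D4:**
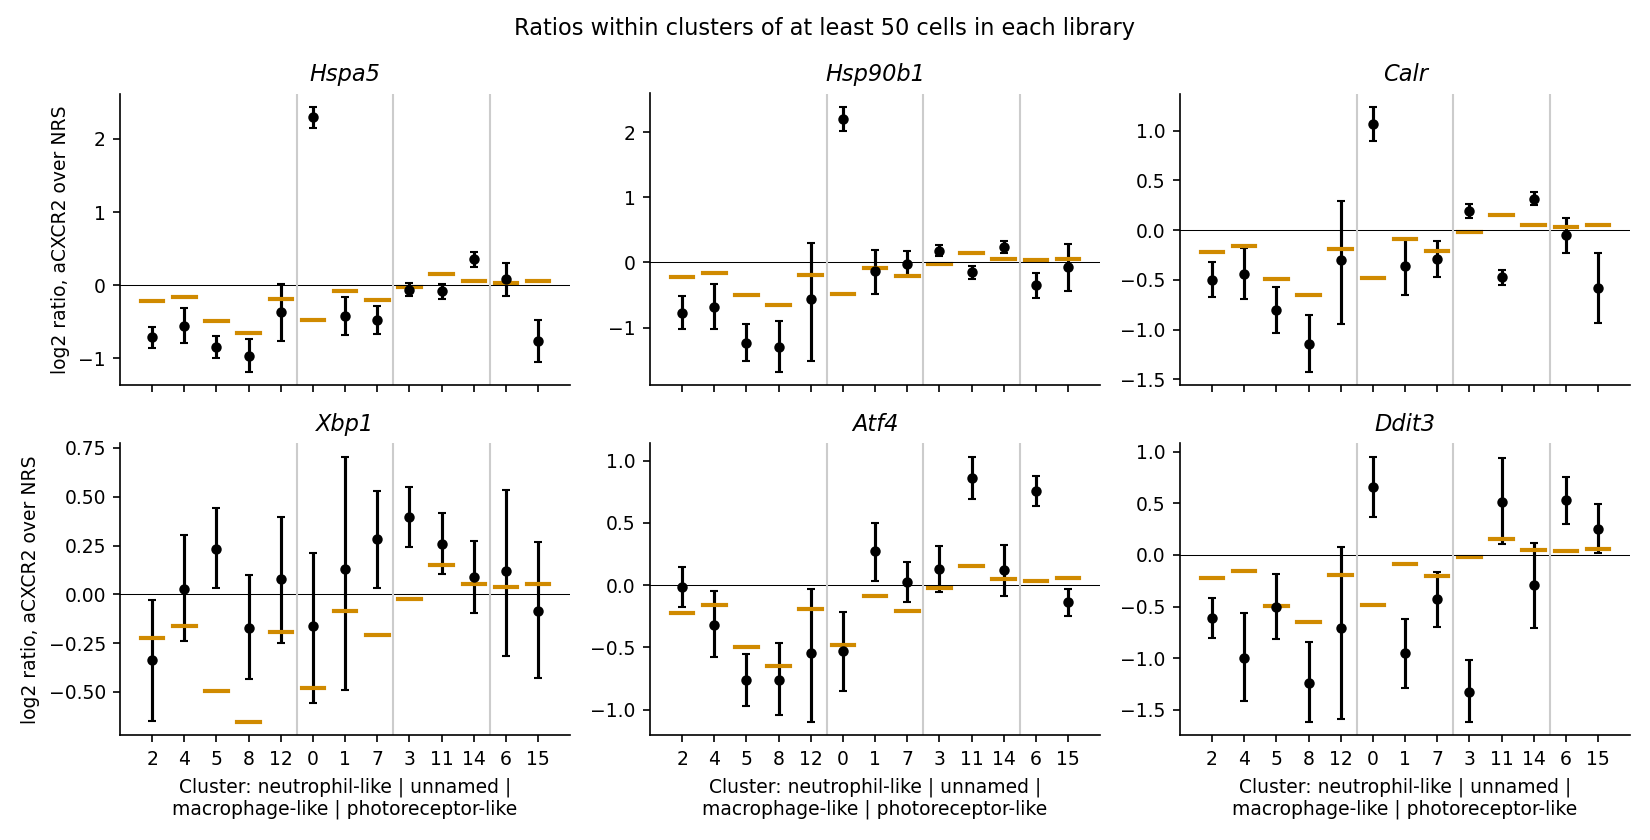
log2 ratio of aCXCR2 over NRS (y axes that differ between panels) within 13 clusters of at least 50 cells in each library (x axis, grouped by class), with exact 95% counting intervals and orange bars at the median of all genes in the cluster. Hspa5, Hsp90b1, Calr and Ddit3 lie below 0 in all 5 neutrophil-like clusters, and the high Hspa5 and Hsp90b1 values of cluster 0 (2.30 and 2.21) include the cell of 85089 UMIs.

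With all photoreceptor-like cells summed, the 3 transcription factors, Herpud1 and Trib3 were higher in aCXCR2. The lumenal chaperones lay near or below the median gene. Herpud1 (1.41, 1.22 to 1.59), Atf4 (1.30, 1.22 to 1.37), Ddit3 (1.13, 0.99 to 1.26), Trib3 (1.05, 0.64 to 1.46) and Xbp1 (1.01, 0.79 to 1.24) were called higher, 5 of 10 genes against 3.65% of 9313. None was called lower, against 1.30%. Hsp90b1 stood at -0.42 (-0.57 to -0.28), Calr at -0.30 (-0.44 to -0.15), Pdia4 at -0.33 (-0.73 to 0.05) and Hspa5 at 0.20 (0.04 to 0.35), with Chac1 at 0.76 (-0.03 to 1.49), beside a median of 0.14 for all genes. By TMM 2 stayed called, Herpud1 and Atf4, against 2.16% of genes, and none was called lower, against 2.06%. Of 15 other ATF4 and CHOP targets that passed the minimum, 4 were called higher (Slc7a5, Eif4ebp1, Cebpg and Bbc3) and 2 lower (Gdf15 and Slc7a11). The makeup of the class differed too, with cluster 15 at 37.6% of aCXCR2 and 10.97% of NRS photoreceptor-like cells. Without it these 5 ratios were smaller, and Atf4 was at 0.69 (0.57 to 0.80), Herpud1 at 0.62 (0.30 to 0.93), Trib3 at 0.60 (-0.07 to 1.22), Ddit3 at 0.51 (0.29 to 0.73) and Xbp1 at 0.16 (-0.25 to 0.55). Chac1 was then the 1 gene called, with 16.2 CPM in aCXCR2 and 1.40 CPM in NRS, and 15 of its 16 UMIs in aCXCR2 cells of cluster 6 came from 3 cells. Within cluster 15, Herpud1 (0.319) and Ddit3 (0.255) were higher in aCXCR2, and Atf4 was lower (-0.136, -0.245 to -0.027). Within cluster 6, Atf4 (0.758), Herpud1 (0.71) and Ddit3 (0.535) were higher. The intervals of Xbp1 and Trib3 held 0 in both clusters.

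Cluster 15 held 79 aCXCR2 and 71 NRS cells and stood apart in both libraries. It was set beside cluster 6, the largest photoreceptor-like cluster, with 128 and 550 cells. The clusters were formed from expression, so the comparison is a description without a test. Atf4 had 2175 CPM in cluster 15 and 727 CPM in cluster 6 in the aCXCR2 library, and 2391 and 430 CPM in the NRS library. Ddit3 had 553 and 210 CPM in aCXCR2, and 464 and 145 CPM in NRS. Both were higher in cluster 15 whichever serum the mice had been given.

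Herpud1 followed, with 349 CPM in cluster 15 and 106 CPM in cluster 6 in aCXCR2, and 279 and 64.8 CPM in NRS. Xbp1 had 228 and 60.2 CPM in aCXCR2 and 242 and 55.4 CPM in NRS. Trib3 had 63.6 and 26.8 CPM in aCXCR2 and 77.3 and 17.3 CPM in NRS. These 5 genes were at least 2-fold higher in cluster 15 in both libraries, as were 10.4% of 9122 genes, and none of the 10 was at least 2-fold lower in both, as 2.74% were. The chaperones stood elsewhere. The log2 ratio of cluster 15 over cluster 6 was 0.32 in aCXCR2 and 1.16 in NRS for Hspa5, -0.35 and -0.63 for Hsp90b1, -0.79 and -0.26 for Calr, and -1.08 and -0.97 for Pdia4.

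A few cells carried part of these levels. Without the 3 richest cells for each gene, Atf4 in cluster 15 was 2081 CPM in aCXCR2 and 2403 CPM in NRS, Ddit3 505 and 390 CPM, Herpud1 288 and 207 CPM, Xbp1 197 and 171 CPM, and Trib3 46.1 and 38.9 CPM. Trib3 in aCXCR2 then fell short of 2-fold over the 26.8 CPM of cluster 6 with all its cells. Chac1 in cluster 15, 6.91 CPM in aCXCR2 and 107 CPM in NRS, came from 3 cells in each library and was 0 without them. A single NRS cell of 6366 UMIs held 47 Chac1, 32 Ddit3, 31 Atf4, 28 Herpud1, 20 Hspa5, 16 Trib3 and 14 Xbp1 UMIs. In cells thinned to 1000 UMIs, Atf4 was seen in 88.5% of aCXCR2 (79.2 to 94.6) and 86.8% of NRS cells of cluster 15 (76.4 to 93.8), and Ddit3 in 43.6% and 39.7%.

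Genes beside the 10 were read from lists of the same pathways. Of the other genes listed as ATF4 and CHOP targets, 14 passed the minimum in both libraries and 8 were at least 2-fold higher in cluster 15 in both: Atf3, Bbc3, Cebpb, Cebpg, Ddit4, Eif4ebp1, Sesn2 and Slc7a11. Over all genes the share higher in both was 10.4%, and lower in both 2.74%. Bbc3, which encodes the pro-death BCL2 family protein PUMA, had log2 ratios of 3.80 in aCXCR2 and 3.54 in NRS. Cebpb, a C/EBP transcription factor, had 2.46 and 2.04, and Cebpg, which pairs with ATF4, had 1.73 and 2.29. Among kinases and phosphatase subunits of eIF2, Eif2ak3, which encodes PERK, and Ppp1r15a, which encodes the subunit GADD34, were higher in both, and Eif2ak2, which encodes PKR, was lower in both. Of 14 other chaperones and folding enzymes 1 was higher in both (Dnajb9), and of 9 other genes of ER-associated degradation none was. Of 14 amino acid and tRNA synthetase genes 3 were (Aldh18a1, Iars and Mthfd2).

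Cluster 15 also differed from cluster 6 in other RNA. Its 10 photoreceptor markers summed to 18940 CPM in aCXCR2 and 21850 CPM in NRS, against 42180 and 47350 CPM in cluster 6. Its 12 neutrophil markers summed to 15210 and 4494 CPM, against 3318 and 2600 CPM. Median mitochondrial shares were 1.62% and 2.16%, against 5.64% and 5.47%, and median depths were 7167 and 5237 UMIs, against 5079 and 5829.5. Its leading genes included Cplx3, Nr1d1 and Dbp. The part of cell quality, free RNA and doublets in its levels was not tested. With the stress genes left out of clustering, the best matching cluster took in 67.3% of its cells and had 2299 CPM of Atf4 in aCXCR2 (64 cells) and 2834 CPM in NRS (37 cells).

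**Figure D5:**
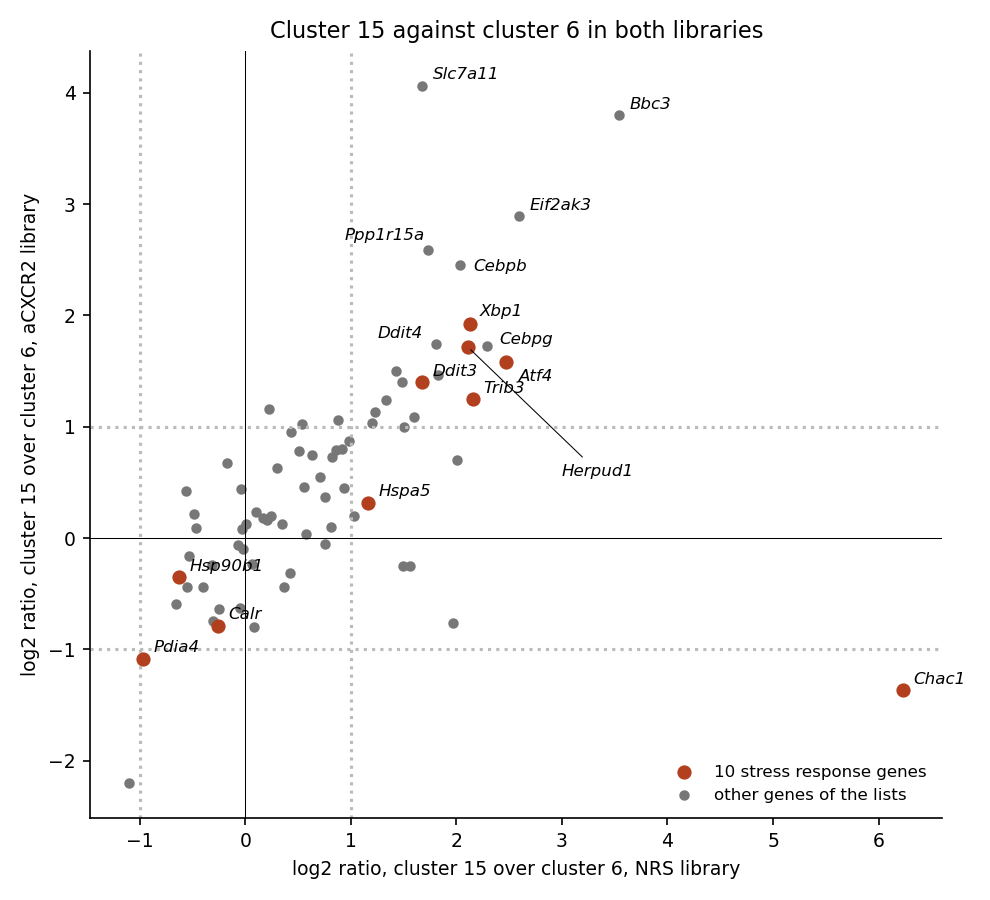
log2 ratio of cluster 15 over cluster 6 in the aCXCR2 library (y axis) and the NRS library (x axis), with the 10 genes in red, other genes of the lists in grey and dotted lines at 2-fold. Atf4, Ddit3, Herpud1, Xbp1 and Trib3 lie in the upper right corner, Pdia4, Calr and Hsp90b1 at the lower left, and Chac1 (3 cells per library) at the far right.

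The same lists were counted in neutrophil-like cells. None of the other list genes was called higher in aCXCR2 there, against 1.57% of all genes, and the share of all genes called lower was 7.78%. Of 13 other chaperones and folding enzymes that passed the minimum, 2 were called lower: Canx, which encodes the membrane partner of calreticulin (86.8 CPM in aCXCR2 and 186 CPM in NRS), and Ero1lb, an oxidase of disulfide formation (5.35 and 10.99 CPM). Their list median was -0.38, as was that of all genes. Ero1l, the related oxidase, had 322 CPM in aCXCR2 and 608 CPM in NRS (log2 ratio -0.92). Of 9 genes of ER-associated degradation and 7 sensors and factors none was called, with medians of -0.26 and -0.36. By TMM none of these 3 lists held a lower call, against 2.93% of all genes.

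Among 7 kinases and eIF2 phosphatase genes in neutrophil-like cells 2 were called lower, Ppp1r15a (93.9 CPM in aCXCR2 and 195 CPM in NRS) and Eif2b5, a subunit of the exchange factor that eIF2 needs (12.9 and 25.8 CPM), with a list median of -0.71. By TMM none of this list was called lower. Eif2ak3 had 9.30 and 15.2 CPM. Of 13 other ATF4 and CHOP targets 2 were called lower, Gdf15, a stress-induced cytokine (22.9 CPM in aCXCR2 and 247 CPM in NRS, log2 ratio -3.43), and Atf3, a transcription factor of immediate stress (48.7 and 148 CPM, -1.60). Another 2 stood higher in aCXCR2 without reaching the call: Asns, asparagine synthetase, with 41.8 and 22.0 CPM (0.93), and Nupr1, a stress-induced chromatin protein, with 47.7 and 25.9 CPM (0.88). By TMM this list held 2 higher and 2 lower calls, against 4.63% and 2.93% of all genes. Of 6 amino acid and tRNA synthetase genes none was called, with a median of -0.54. Gdf15 was also lower in aCXCR2 macrophage-like cells (18.0 and 73.0 CPM, -2.02).

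The genes whose pattern was most like that of Ddit3 were sought among 7910 genes over the 36 combinations of cluster and library, by Pearson correlation of log2(CPM + 10). They were Atg12 (r = 0.90), an autophagy protein, Zfp787 (0.90), Ubxn4 (0.90), an ER membrane protein of protein degradation, Rnf146 (0.89), a ubiquitin ligase, and Ppp2r2d (0.89), a phosphatase subunit. Atf4 ranked 26 at 0.85 and Trib3 ranked 56 at 0.82, whereas Hspa5 stood at 0.26. For Hspa5 they were Actn4 (0.71), Creld2 (0.67), Errfi1 (0.66), Zfp185 (0.65) and Wfdc2 (0.64). Without cluster 0 of aCXCR2, the combination with the highest Hspa5, these were 0.64, 0.56, 0.45, 0.43 and 0.41. Creld2, an ER folding factor, was the 1 of the 5 on the chaperone list.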

How the data were processed

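Single-cell libraries from cells of the mouse vitreous (1 aCXCR2, 1 NRS) were read as deposited by the authors: raw UMI counts in whole numbers for each gene and barcode, per the file headers. Cell Ranger and Seurat are named in the submitters' processing notes, with a human build, although the gene IDs are of mouse. Which mouse build was used is not given in the labels. Promoters are RefSeq's on GRCm38.p6.

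Kept barcodes had at least 500 UMIs and 200 genes and no more than 10% of UMIs from mitochondrial genes, which left out 725 of 5551 aCXCR2 and 1659 of 7314 NRS barcodes. The doublet caller called 4 of 4826 aCXCR2 and 0 of 5655 NRS cells, so it has not worked and doublets remain. Cells of both libraries were clustered together (scanpy 1.11.5, 2000 variable genes, 30 principal components, 15 neighbours, Leiden resolution 1), without library correction. Clusters were named from marker lists, by a scoring rule (prior 100 CPM) set after seeing the data.

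UMI counts were summed per library and class, divided by total UMIs (CPM), and given exact Poisson, Clopper-Pearson and conditional binomial intervals of 95%, which cover counting error only. A call is a 2-fold ratio with at least 10 CPM in 1 library. The ratio step was checked on simulated Poisson counts of summed genes. These follow the model of the intervals, so the check did not cover clumping of UMIs in single cells. For TMM, edgeR 4.0.16 was run under R 4.3.3, and the rest under Python 3.11.15 with scipy 1.17.1, numpy 2.4.6 and pandas 2.3.3. Alternatives changed the cell filter, doublets, clustering, scaling, weighting, minimum and class makeup.

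The 10 genes and the pathway lists were chosen with earlier results of these data known. The named genes were the 10, up to 4 more per list by size of ratio in neutrophil-like cells, and the 5 genes most like Ddit3 and Hspa5. Genes named for cluster 15 or single cells were chosen after their values were seen. Vimp and Mars1 of the lists were not used here.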

Additional observations from a re-analysis of the deposited data

Results flagged for a closer look

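Hspa5, Hsp90b1, Calr and Atf4 had ratios of opposite sign in neutrophil-like and macrophage-like cells. The log2 ratio of aCXCR2 over NRS was -0.98 in neutrophil-like and 0.12 in macrophage-like cells for Hspa5, -1.07 and 0.12 for Hsp90b1, -0.78 and 0.066 for Calr, and -0.61 and 0.34 for Atf4. The macrophage-like sign did not hold throughout: without cluster 14 Hspa5 was at -0.07, and within clusters Hspa5 was below 0 in 2 of the 3 compared, with Calr at -0.48 and Hsp90b1 at -0.15 in cluster 11. The difference between the classes was not tested, since each class came from 1 library per group. Relative to the median gene of the class, Calr was at -0.40 in neutrophil-like and -0.02 in macrophage-like cells, the same side in both.

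All 10 genes were seen in the 524 aCXCR2 and 1521 NRS barcodes left out for their mitochondrial share alone. Xbp1, at 107.5 CPM in aCXCR2 and 46.7 CPM in NRS, was flagged because its aCXCR2 interval lay above that of NRS. The flag did not look for genes higher in NRS. Hsp90b1 (261 and 333 CPM), Calr (280.5 and 336 CPM) and Ddit3 (75.5 and 95.3 CPM) were such genes, with intervals apart. In kept cells Xbp1 had 154 CPM in aCXCR2 and 98.1 CPM in NRS.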

How the results depend on the processing

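The number of genes called lower in aCXCR2 neutrophil-like cells, 2 as reported, was 0 with a stricter cell filter, with clustering at resolution 0.5 or 2, with libraries clustered separately, with TMM or median-of-ratios scaling, and without cluster 2, the largest NRS cluster of the class. It was 1 with totals taken without S100a8 and S100a9, and 3 with the 186 aCXCR2 and 256 NRS cells of highest doublet score removed. It stayed 2 in the other 4 settings run. The number called higher there was 0 in all 13 settings, as were both numbers in macrophage-like cells. In photoreceptor-like cells 5 were called higher, 2 with TMM and 1 without cluster 15; both alternatives were chosen after seeing the data, as was leaving out the 3 richest cells. The cause was not tested.

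In neutrophil-like cells Ddit3 ranged from -1.29 to -0.76 over the alternatives, Hsp90b1 from -1.24 to -0.59, Hspa5 from -1.002 to -0.499, Calr from -0.93 to -0.30 and Atf4 from -0.71 to -0.13, while Xbp1 (-0.15 to 0.72) and Herpud1 (-0.13 to 0.68) took both signs. In macrophage-like cells Hspa5 ranged from -0.07 to 0.23, being negative without cluster 14. The sign was kept in 107 of 120 neutrophil-like, 114 of 119 macrophage-like and 19 of 20 photoreceptor-like values. No paired analysis was possible because each group had 1 library. Depth limits Trib3, Chac1 and Pdia4 most, with 84, 49 and 139 UMIs in aCXCR2 and 46, 30 and 44 in NRS neutrophil-like cells. Pdia4 kept its sign there in 5 of 12 alternatives.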
